A study of Homo sapiens with 4 samples.

Results

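The genes described here are 9 members of the BCL2 family and the death receptor gene TNFRSF10B, which encodes DR5. They were chosen by gene symbol and are 10 of the 61806 genes in the count table. The group holds 4 pro-survival genes (BCL2, BCL2L1, MCL1 and BCL2A1), 3 genes of the BH3-only class (BCL2L11, BBC3 and PMAIP1), 2 effector genes (BAX and BAK1) and 1 receptor gene. Poly(A) RNA was sequenced from 2 human cancer cell lines, MDA-MB-231, labelled as breast cancer cells, and MDA-MB-435, labelled as melanoma cells. Each line gave 1 control library and 1 library of cells treated with CPYPP, an inhibitor of DOCK (dedicator of cytokinesis) proteins, at 10 µM for 6 h. All 4 libraries carry the genotype label WT, and the vehicle given to the control cells is not stated in the sources used here. The study treated these cells to follow paraptosis, a form of cell death with swelling vacuoles in the cytoplasm, and the question here is how the transcripts of the apoptosis regulators behaved under the same treatment.

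Pro-survival BCL2 proteins bind and hold in check the effectors BAX and BAK1, which otherwise open pores in the outer mitochondrial membrane and release cytochrome c. BH3-only proteins are the sensors of stress in this system: they bind the pro-survival proteins, and some also activate the effectors directly. DR5 works from the cell surface instead, where the ligand TRAIL makes it recruit the adaptor FADD and caspase-8. Transcripts of several BH3-only genes and of DR5 are known to be raised by the integrated stress response.

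The libraries held between 17196385 and 22663954 counts, and mitochondrial genes took between 3.55% and 5.34% of them, the lower share being in the CPYPP library of each line. The part of that shift in the values below was not tested. SOX10 and S100B, genes of the melanocyte lineage, had 3031 and 1055 counts in the MDA-MB-435 control against 0 and 0 in the MDA-MB-231 control, and the epithelial keratin KRT19 had 3953 counts in the MDA-MB-231 control against 4. SOX10 was at 707 counts in the CPYPP library of MDA-MB-435. Not every melanocyte marker separated the lines: MITF had 1585 counts in the MDA-MB-231 control and 1405 in the MDA-MB-435 control, and PMEL had 34 and 13. Of the breast and mesenchymal markers, KRT7, KRT8 and EPCAM went with KRT19. In the same order, KRT18 had 8212 and 5740 counts, VIM 38484 and 98483, CD44 27537 and 36689, and ESR1 2 and 24. The pigment genes PMEL, MLANA, TYR and TYRP1 had at most 16 counts in either MDA-MB-435 library. A further pigment gene, DCT, had 658 and 464 counts in MDA-MB-435 cells, control first, against 1 and 3 in MDA-MB-231 cells. With 1 library per condition no difference below has a replicate check. The intervals are 95% exact intervals and hold counting error alone. Tests on reads set 1 library against another, so they say nothing about how cultures of a condition vary. In such bulk RNA, fewer cells with a transcript and less of it per cell cannot be told apart.

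PMAIP1, BCL2L11 and BCL2L1 were the members that passed the study's thresholds, a fold change over 2 with an adjusted p under 0.05. The adjusted p came from an exact binomial test on the reads, so a pass here is not the study's own call. All 3 passed in MDA-MB-435 cells. There PMAIP1 and BCL2L11 rose by factors of 4.72 and 2.29, and BCL2L1 fell to 0.456 of its control level. In MDA-MB-231 cells none of the 9 tested members passed, although the same 3 genes lay on the same side of their controls, at 1.78, 1.27 and 0.673 times. Over all genes tested in MDA-MB-435 cells, 3.17% passed as higher and 6.52% as lower, against 2 and 1 of the 9 tested members. In MDA-MB-231 cells these shares were 4.22% and 3.09%. By fold alone they were 4.02% and 9.75% in MDA-MB-435 cells and 5.4% and 5.43% in MDA-MB-231 cells, and the counts of members stayed as they were. All 9 tested members lay on the same side of their control in both lines, 6 above and 3 below. The share of all tested genes that did so was not computed, so this count cannot be read as particular to the members. The intervals of BAX and BBC3 included 1 in both lines, as did those of BCL2 and BAK1 in MDA-MB-435 cells. When scaled by total counts alone, BCL2 changed side in MDA-MB-435 cells. The median log2 fold change of the tested members was 0.34 in MDA-MB-231 cells and 0.35 in MDA-MB-435 cells, beside -0.01 over all genes in each line. If cultures are assumed to vary by a coefficient of 0.2, PMAIP1 alone of the 3 passes in MDA-MB-435 cells, and with 0.4 none does.

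**Figure D1:**
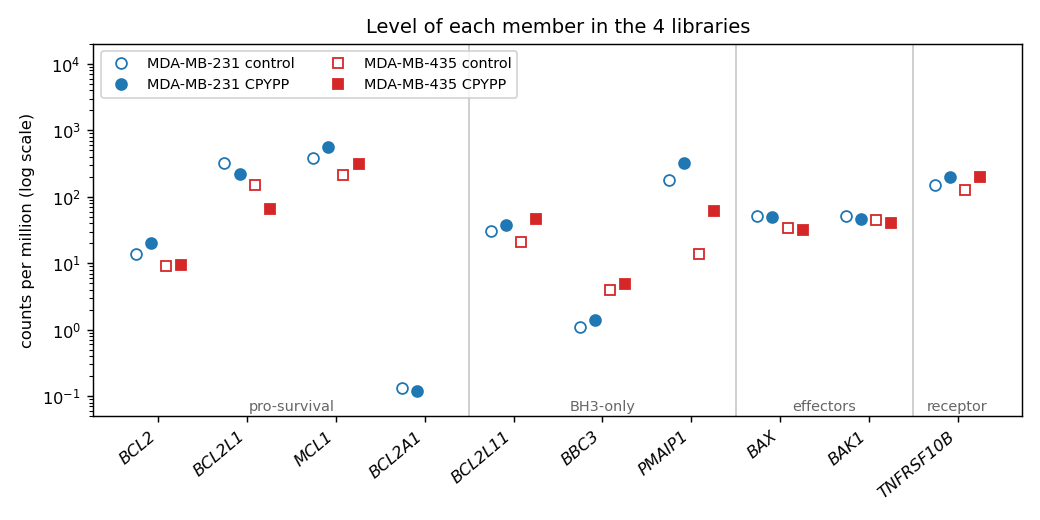
Level in CPM of the 10 members in each of the 4 libraries on a log axis, with open symbols for control and filled symbols for CPYPP, and grey lines between the classes; BCL2A1 had 0 counts in both MDA-MB-435 libraries and is not drawn there. PMAIP1 shows the widest gap between the lines, and BCL2L1 is the member that moves down clearly in both.

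Among the pro-survival members, BCL2L1 and MCL1 held nearly all of the signal, and they moved apart. BCL2L1 (ENSG00000171552, chr20:31664452-31723989 in GRCh38, the build of all positions given here, minus strand) encodes BCL-XL. It had 7280 counts in the MDA-MB-231 control, 3588 after CPYPP, 3626 in the MDA-MB-435 control and 1283 after CPYPP. The treated library was the lower in each line, and both MDA-MB-435 libraries lay below both MDA-MB-231 libraries once scaled to depth and length, at 36.1 and 15.9 FPKM against 77.5 and 51.9 FPKM. After scaling by the TMM factors, which set the bulk of genes equal between the libraries of a line, BCL2L1 was 1.49-fold lower in MDA-MB-231 cells (interval 1.43 to 1.55) and 2.19-fold lower in MDA-MB-435 cells (2.06 to 2.34). In the model of the effect common to both lines, with the line as a block, its log2 fold change was -0.89 ± 0.146 (SE, edgeR quasi-likelihood adjusted p = 0.00568). Its short splice form, BCL-XS, has the opposite role, and counts per gene do not separate the forms.

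MCL1 (ENSG00000143384, chr1:150560895-150579738, minus strand), a short-lived pro-survival protein that binds NOXA and BIM, went the other way. Its counts were 8666 and 9165 in MDA-MB-231 cells and 5081 and 6067 in MDA-MB-435 cells, control first. The treated count was the higher in each line despite the smaller treated library, and the scaled level was 1.44-fold (1.40 to 1.49) and 1.54-fold (1.48 to 1.60) that of the control. The common log2 fold change was 0.53 ± 0.108 (edgeR quasi-likelihood adjusted p = 0.0160). MCL1 also has a short form with a pro-death role that these counts do not separate.

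BCL2 (ENSG00000171791, chr18:63123346-63320128, minus strand), the founding member, was a minor transcript in both lines. It had 306 and 329 counts in MDA-MB-231 cells and 219 and 184 in MDA-MB-435 cells. Its scaled ratio was 1.47 (1.25 to 1.72) in MDA-MB-231 cells and 1.08 (0.886 to 1.32) in MDA-MB-435 cells, where the interval includes 1, and its sign in MDA-MB-435 cells turned to a log2 fold change of -0.034 when total counts replaced the TMM factors. BCL2A1 (ENSG00000140379, chr15:79960892-79971196, minus strand), a target of the melanocyte factor MITF and of NF-κB, had 3 and 2 counts in MDA-MB-231 cells and 0 and 0 in MDA-MB-435 cells. It was below the 10 counts needed for a test and gets no fold change. Taking 3 counts as the limit that a count of 0 allows, which is a floor and not one of the exact intervals, the level could be up to 0.132 CPM (counts scaled to the library's total) in the MDA-MB-435 control and 0.154 after CPYPP.

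Per length and depth (FPKM), BCL2L1 was the more abundant of the main pro-survival pair in the MDA-MB-231 control, at 77.5 against 62.2 for MCL1, while in the MDA-MB-435 control their intervals overlapped, at 36.1 and 34.1. After CPYPP the order was MCL1 over BCL2L1 in both lines, at 89.4 and 51.9 FPKM in MDA-MB-231 cells and 50.8 and 15.9 FPKM in MDA-MB-435 cells. The MCL1 to BCL2L1 ratio within a library, which no scaling between libraries can move, went from 0.803 to 1.72 in MDA-MB-231 cells, a factor of 2.15 (2.04 to 2.26). In MDA-MB-435 cells it went from 0.945 to 3.19, a factor of 3.37 (3.13 to 3.64). Of the FPKM of the 4 pro-survival members, MCL1 thus held 44.2% in the MDA-MB-231 control and 62.5% after CPYPP, and 48.1% and 75.3% in MDA-MB-435 cells. BCL2L2, a pro-survival gene outside the members, is not in these shares. It had 9.47 and 7.81 FPKM in MDA-MB-231 cells and 11.5 and 10.5 FPKM in MDA-MB-435 cells, control first. The sum over the pro-survival members was nearly level, at 141 and 143 FPKM in MDA-MB-231 cells and 70.9 and 67.4 FPKM in MDA-MB-435 cells.

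The BH3-only genes held the largest rise among the 9 tested members. PMAIP1 (ENSG00000141682, chr18:59899996-59904305, plus strand) encodes NOXA, which binds MCL1 and promotes its degradation. It had 4011 counts in the MDA-MB-231 control and 5239 after CPYPP, and 326 and 1192 in MDA-MB-435 cells. The treated MDA-MB-435 library still lay well below the untreated MDA-MB-231 library. The scaled rise was 4.72-fold in MDA-MB-435 cells (4.17 to 5.35), where 0.557% of the tested genes had a larger fold change, and the ratio in MDA-MB-231 cells was 1.78 (1.71 to 1.86), where 7.32% did. The fold in MDA-MB-435 cells was 2.65 times that in MDA-MB-231 cells (2.32 to 3.02). The common log2 fold change was 1.44 ± 0.241 (edgeR quasi-likelihood adjusted p = 0.00626), and with DESeq2 in the same design its adjusted p was 0.0994.

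BCL2L11 (ENSG00000153094, chr2:111119378-111168445, plus strand) encodes BIM, which binds every pro-survival protein of the family and can activate BAX. Its counts were 681 and 632 in MDA-MB-231 cells and 497 and 884 in MDA-MB-435 cells. The treated MDA-MB-435 library was the highest of the 4 even before scaling. The rise in MDA-MB-435 cells was 2.29-fold (2.05 to 2.57), and the ratio in MDA-MB-231 cells was 1.27 (1.14 to 1.41). The common log2 fold change was 0.73 ± 0.189 (edgeR quasi-likelihood adjusted p = 0.0453), and with DESeq2 the adjusted p was 0.0630. The antisense gene MIR4435-2HG overlaps BCL2L11 and had more counts than it, 2315 and 1829 in MDA-MB-231 cells and 2028 and 1410 in MDA-MB-435 cells, or 1.08 and 0.897 times control after scaling. No strand setting is given in the sources used here. Reads from any exonic bases that the pair shares therefore cannot be assigned to a strand with certainty. The extent of such bases was not examined.

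BBC3 (ENSG00000105327, chr19:47220822-47232766, minus strand) encodes PUMA, a BH3-only protein that binds the pro-survival proteins of the family. It had 25 and 23 counts in MDA-MB-231 cells and 94 and 93 in MDA-MB-435 cells. Treated and control counts were nearly equal in each line, and the scaled ratios of 1.26 (0.681 to 2.31) and 1.28 (0.948 to 1.72) have intervals that include 1. A change within these bounds was not detectable at this depth. BBC3 was the member with a higher level in the MDA-MB-435 control than in the MDA-MB-231 control, 3.51-fold (2.24 to 5.70).

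The 250 bases before the start sites of the 3 genes that passed the thresholds are shown because those genes moved in opposite directions. They were read from RefSeq promoter entries of GRCh38.p14, which were found for 8 of the 10 members and whose start sites need not be the first base of the table's row. Capitals mark matches, on either strand, to the GC box GGGCGG, the cyclic AMP response element core TGACGT, the C/EBP-ATF element TGATGNAA, the heat shock element GAANNTTC, the antioxidant response element core TGACNNNGC and the AP-1 site TGANTCA. The heat shock and AP-1 patterns read the same on both strands. The PMAIP1 window is chr18:59899746-59899995 (plus strand), that of BCL2L11 is chr2:111120664-111120913 (plus strand), and those of the 2 BCL2L1 start sites are chr20:31723964-31724213 and chr20:31722869-31723118 (minus strand).
PMAIP1: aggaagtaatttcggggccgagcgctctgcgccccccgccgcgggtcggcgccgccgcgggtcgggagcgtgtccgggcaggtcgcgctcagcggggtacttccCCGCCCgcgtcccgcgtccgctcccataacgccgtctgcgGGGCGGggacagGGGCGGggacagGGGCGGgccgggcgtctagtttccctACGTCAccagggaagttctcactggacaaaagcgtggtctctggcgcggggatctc
BCL2L11: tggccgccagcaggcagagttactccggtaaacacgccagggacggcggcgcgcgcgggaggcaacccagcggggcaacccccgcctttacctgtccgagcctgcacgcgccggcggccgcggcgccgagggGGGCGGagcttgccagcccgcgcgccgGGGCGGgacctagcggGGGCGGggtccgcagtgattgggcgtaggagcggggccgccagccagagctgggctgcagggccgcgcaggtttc
BCL2L1, first start: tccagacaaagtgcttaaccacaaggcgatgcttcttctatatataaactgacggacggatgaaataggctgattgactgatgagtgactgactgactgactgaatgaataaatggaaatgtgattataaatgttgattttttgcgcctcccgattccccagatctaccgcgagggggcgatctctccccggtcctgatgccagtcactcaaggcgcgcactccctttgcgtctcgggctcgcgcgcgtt
BCL2L1, second start: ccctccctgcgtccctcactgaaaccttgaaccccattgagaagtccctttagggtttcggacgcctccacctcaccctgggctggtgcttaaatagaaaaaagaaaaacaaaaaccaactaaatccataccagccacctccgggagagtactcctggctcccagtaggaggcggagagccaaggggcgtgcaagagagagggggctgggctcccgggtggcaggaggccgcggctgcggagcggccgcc

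The PMAIP1 window held GC boxes at 82 to 77, 94 to 89 and 106 to 101 bases before the start and a reverse one at 146 to 141. It also held the cyclic AMP response element core, the type of site that ATF and CREB factors bind, in reverse at 56 to 51 bases before the start. The BCL2L11 window held 3 GC boxes, and neither BCL2L1 window held any of the 6 patterns. Of 35116 RefSeq promoters, 42.6% held a GC box and 7.10% the cyclic AMP response element core in the same 250 bases. Among the 9 windows of members these were 4 and 1. The other 4 patterns were each in 1 member window, and in 3.14% (C/EBP-ATF), 5.78% (heat shock), 10.9% (antioxidant) and 6.57% (AP-1) of all promoters. A match describes letters, not binding.

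The effectors had ratios near 1. BAX (ENSG00000087088, chr19:48954815-48961798, plus strand) had 1141 and 813 counts in MDA-MB-231 cells and 815 and 605 in MDA-MB-435 cells, and its scaled ratios were 0.972 (0.888 to 1.07) and 0.957 (0.860 to 1.07). BAK1 (ENSG00000030110, chr6:33572547-33580293, minus strand) had 1153 and 759 counts in MDA-MB-231 cells and 1072 and 769 in MDA-MB-435 cells, with ratios of 0.898 (0.819 to 0.985) and 0.925 (0.842 to 1.02). Of these 4 intervals, that of BAK1 in MDA-MB-231 cells excludes 1, and this depends on the scaling. Its exact binomial adjusted p was 0.0488 with TMM and 0.0695 with DESeq2 size factors. With total counts, the exact binomial adjusted p in MDA-MB-435 cells was 0.0133 for BAX and 0.000384 for BAK1, both lower than control. The common log2 fold changes were -0.09 ± 0.137 for BAX and -0.18 ± 0.133 for BAK1, with edgeR quasi-likelihood adjusted p = 0.774 and 0.513. The ratio of BAX to BAK1 changed by factors of 1.08 and 1.03, with intervals that reach 1.23 and 1.19 and include 1.

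**Figure D2:**
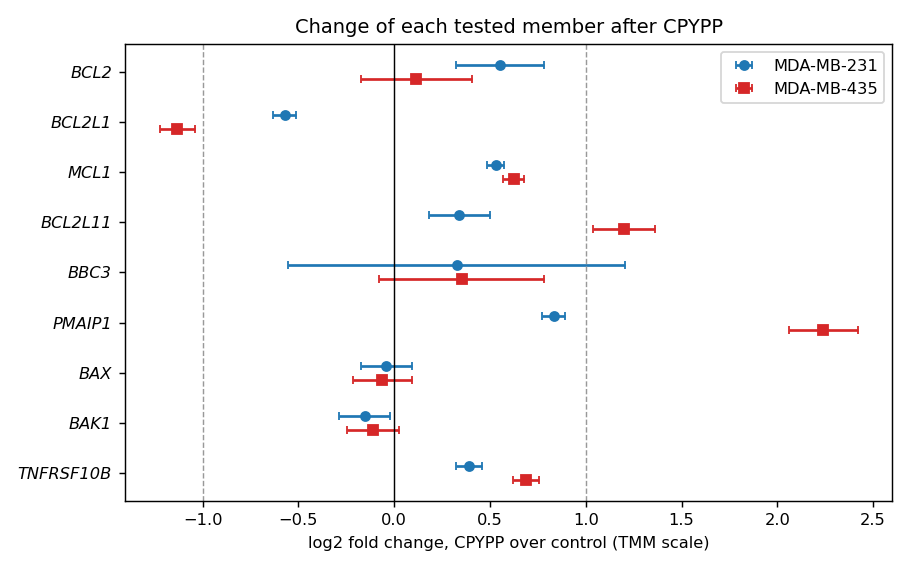
Log2 fold change, CPYPP over control, of the 9 tested members in MDA-MB-231 (circles) and MDA-MB-435 (squares), with 95% exact counting intervals as bars and dashed lines at a fold change of 2 in either direction. PMAIP1, BCL2L11 and BCL2L1 in MDA-MB-435 cells lie beyond the dashed lines.

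TNFRSF10B (ENSG00000120889, chr8:23020133-23069031, minus strand) was higher after CPYPP in both lines without reaching a fold change of 2. It had 3435 and 3301 counts in MDA-MB-231 cells and 3085 and 3852 in MDA-MB-435 cells. The scaled ratios were 1.31 (1.25 to 1.38) and 1.61 (1.54 to 1.69), and 19.2% and 8.08% of the tested genes had larger ones. Its level went from 30.6 to 39.99 FPKM in MDA-MB-231 cells and from 25.7 to 40.02 FPKM in MDA-MB-435 cells. The common log2 fold change was 0.50 ± 0.113 (edgeR quasi-likelihood adjusted p = 0.0266). The overlapping gene RHOBTB2, on the other strand, had 367 and 234 counts in MDA-MB-231 cells and 745 and 498 in MDA-MB-435 cells, or 0.870 and 0.862 times control.

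In the model of the common effect, 5 of the 9 tested members passed an adjusted p of 0.05, with PMAIP1, BCL2L11, MCL1 and TNFRSF10B higher and BCL2L1 lower. Over all 16801 genes in that model, 4.39% passed as higher and 2.85% as lower. The model has 1 residual degree of freedom per gene. Its spread mixes the difference between the lines' responses with that between single cultures, and the 2 cannot be told apart. Without the line as a block, no member passed, nor did any other gene. By the reads alone, an adjusted p under 0.05 with no minimum fold was reached by 7 of 9 members in MDA-MB-231 cells and 5 of 9 in MDA-MB-435 cells, beside 45.1% and 50.8% of all tested genes.

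The lines differed in where they started. PMAIP1 was 13.2-fold higher in the MDA-MB-231 control than in the MDA-MB-435 control (11.8 to 14.8), the widest gap among the members. BCL2L1 and MCL1 were 2.15-fold and 1.82-fold higher there, BCL2 and BCL2L11 1.49-fold and 1.47-fold, and TNFRSF10B and BAK1 1.19-fold and 1.15-fold. The BAX level of the MDA-MB-435 control was 0.668 times that of the MDA-MB-231 control. PMAIP1 was accordingly the most abundant member in MDA-MB-231 cells, at 81.9 FPKM in the control and 145 FPKM after CPYPP. In MDA-MB-435 cells it ranked below BAX in the control, at 6.22 FPKM, and above BAK1 and BCL2L1 after CPYPP, at 28.4 FPKM. BCL2, BBC3 and BCL2A1 held the lowest 3 places in all 4 libraries.

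Set against each other within a library, PMAIP1 and BCL2L11 gained on BCL2L1 more than on MCL1. The PMAIP1 to BCL2L1 ratio of FPKM went from 1.06 to 2.80 in MDA-MB-231 cells, a factor of 2.65 (2.50 to 2.81). In MDA-MB-435 cells it went from 0.173 to 1.78, a factor of 10.3 (8.98 to 11.9). The PMAIP1 to MCL1 ratio changed by 1.24 (1.17 to 1.30) and 3.06 (2.69 to 3.49). BCL2L11 gained on BCL2L1 by 1.88 and 5.03. Against MCL1 it moved by 0.878 (0.783 to 0.983) in MDA-MB-231 cells and 1.49 (1.32 to 1.68) in MDA-MB-435 cells, to different sides of 1. Summed over the BH3-only and effector members and divided by the sum of the pro-survival members, the FPKM ratio was 0.922 and 1.34 in MDA-MB-231 cells and 0.620 and 0.995 in MDA-MB-435 cells. Pro-death family genes outside the members are not in it. In MDA-MB-231 cells BAD had 18.5 and 18.0 FPKM, BOK 11.3 and 10.2, and BID 7.22 and 9.30. In MDA-MB-435 cells BAD had 11.0 and 9.17 and BID 11.0 and 13.8. Where the ratio lies relative to 1 thus depends on the genes chosen. The PMAIP1 level made up most of the rise in the pro-death sum, while the effector sum was 43.0 and 39.9 FPKM in MDA-MB-231 cells and 33.4 and 30.3 FPKM in MDA-MB-435 cells.

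**Figure D3:**
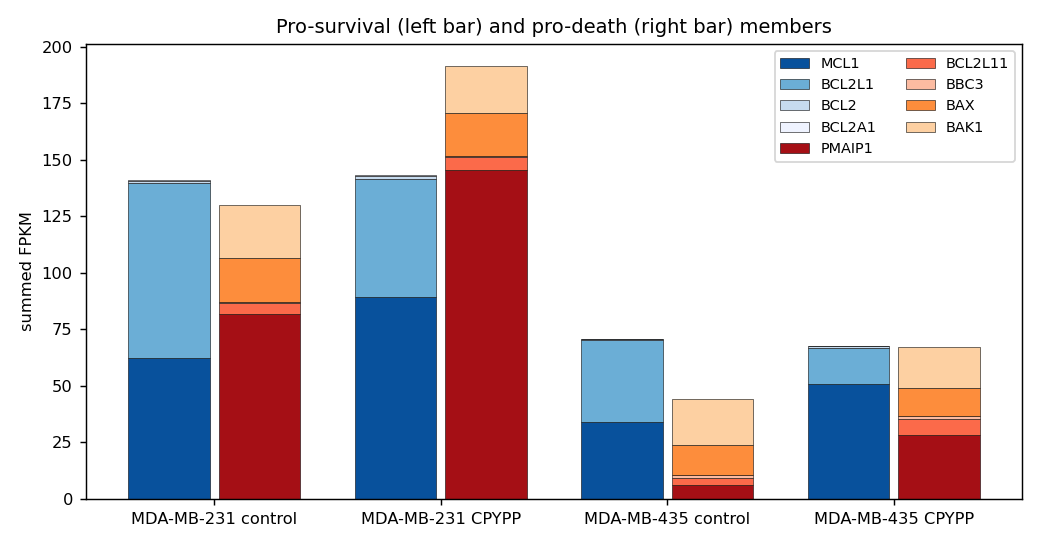
Summed FPKM of the pro-survival members (left bar, blues) and of the BH3-only and effector members (right bar, reds and oranges) in each library, stacked by gene from 0. The left bars keep about the same height within a line while MCL1 takes a larger share after CPYPP, and the right bars grow through PMAIP1.

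Other genes of the apoptotic machinery were compared by 5 lists with 43 genes. In MDA-MB-231 cells, 37 were tested, 1 passed as higher and 1 as lower. In MDA-MB-435 cells, 33 were tested, none passed as higher and 2 as lower. Over all tested genes the shares were 4.22% and 3.09% in the first line and 3.17% and 6.52% in the second, so the list counts were near the background. The median log2 fold changes were -0.05 and 0.20, beside -0.01 over all genes in each line. By list, in the order MDA-MB-231 and MDA-MB-435, the median fold change was 0.967 and 1.02 for the other BCL2 family genes, 1.00 and 1.33 for death receptors and ligands and 0.946 and 0.972 for receptor adaptors and initiators. It was 0.966 and 1.24 for the apoptosome and effector caspases and 0.898 and 1.18 for the IAPs and their antagonists, and in these last 2 lists no gene passed. TNFRSF10D, a decoy receptor for TRAIL, rose 2.47-fold (2.24 to 2.72) in MDA-MB-231 cells, with 665 counts in the control and 1202 after CPYPP, and had 0 counts in both MDA-MB-435 libraries. BMF, a further BH3-only gene, fell from 41 to 13 counts in MDA-MB-231 cells (0.433 times, 0.213 to 0.824). In MDA-MB-435 cells BMF fell from 111 to 40 counts (0.465 times, 0.315 to 0.673). These counts are low, and BMF did not pass in the common model (edgeR quasi-likelihood adjusted p = 0.115). FADD, the adaptor that DR5 recruits, fell in MDA-MB-435 cells from 855 to 316 counts (0.477 times, 0.418 to 0.543) and in MDA-MB-231 cells went from 589 to 242 counts (0.561 times, 0.481 to 0.652). Among the list genes that passed an edgeR quasi-likelihood adjusted p of 0.05 in the common model, FADD was lower and BCL2L13 was higher. TNFRSF10D has no value in MDA-MB-435 cells, so it is not counted as common to both lines. BCL2L13 is named here after its values were seen.

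**Figure D4:**
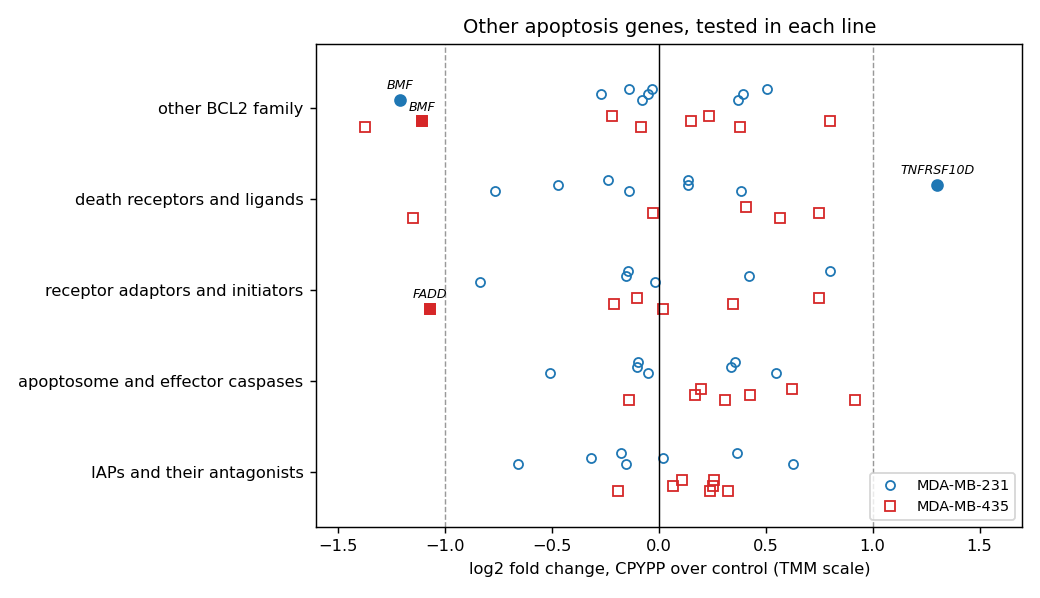
Log2 fold change, CPYPP over control, of the tested genes in 5 lists of apoptosis genes, for MDA-MB-231 (circles) and MDA-MB-435 (squares), with filled and named symbols for genes past both thresholds. TNFRSF10D is the filled symbol on the right, and BMF and FADD are those on the left.

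Of 14 genes listed as regulators of the members or as stress response genes, 3 of 14 tested passed as higher in MDA-MB-231 cells. In MDA-MB-435 cells 5 of 13 did, and none passed as lower in either line. Over all tested genes, 4.22% and 3.17% passed as higher. The genes that passed are among those the paper lists as raised by CPYPP in these lines, so these counts are not an independent result. The stress response factor ATF4 was 1.51 and 2.80 times control, its target DDIT3 (CHOP), a known activator of TNFRSF10B and BCL2L11, was 2.05 and 5.08 times, and ATF3 was 4.86 and 27.2 times. TRIB3, a further target of ATF4 and DDIT3, was 1.83 and 3.25 times control. MITF was 0.594 and 0.743 times control. The part of these regulators in the members' values was not tested. After each gene's log2 CPM was centred over the 4 libraries, which removes its level and keeps its pattern, the 3 genes nearest to PMAIP1 among 11043 candidates were CTH, RNF144B and IER5, at root mean square distances of 0.194, 0.251 and 0.280 on the log2 scale. For BCL2L1 they were ZNF681, TLCD5 and INSYN2B, at 0.066, 0.106 and 0.111.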

How the data were processed

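Poly(A) RNA of 4 libraries, 1 per line and condition, was sequenced, and the authors deposited 1 table of raw read counts per gene. The submitters' processing notes name cutadapt 1.9.1, HISAT2 2.2.1, HTSeq 0.6.1 and DESeq2, with build GRCh37.p13. The table's positions instead overlap GENCODE v29 (GRCh38) for 58241 of 58254 shared identifiers and for all 10 members, and are printed as GRCh38. The strand setting is not given in the sources used here. The growth and treatment notes name MDA-MB-435 for every sample, so lines were taken from the sample labels.

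Within each line, genes with at least 10 counts in 1 of its libraries (16441 in MDA-MB-231 cells, 16527 in MDA-MB-435 cells) were scaled by TMM and compared by a two-sided exact binomial test on the reads, with Benjamini-Hochberg adjustment over all of them. The common effect was fitted with edgeR 4.0.16 quasi-likelihood (R 4.3.3), with the line as a block and genes kept by filterByExpr. It gave a biological coefficient of variation of 0.121. Each SE is the size of the log2 fold change divided by the square root of that test's F statistic. FPKM used exon length and a TMM over the 4 libraries. Intervals were exact (Clopper-Pearson, Poisson or conditional odds ratio, scipy 1.17.1). The scripts were tested on simulated data.

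The members and lists were chosen with earlier results of these data known. Genes named are the members, list genes past the thresholds in either line, a fixed set of regulators, the 3 nearest profiles of PMAIP1 and of BCL2L1, and genes that overlap a member and hold over 10 counts. Of these overlapping genes, ADAMTSL4 (MCL1; at most 373 counts), ACOXL (BCL2L11; at most 48) and GGNBP1 (BAK1; at most 16) were small beside the member. Some genes that this rule or the lists select are not reported here. Alternatives covered normalization, filters, thresholds, assumed variation, DESeq2 1.42.0 and the block. The lists were other BCL2 family genes, receptors and ligands, adaptors and initiators, the apoptosome and effector caspases, and IAPs with their antagonists.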

Additional observations from a re-analysis of the deposited data

Results flagged for a closer look

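The fold change after CPYPP differed between the lines, by an exact interval for the ratio of the folds (MDA-MB-435 over MDA-MB-231) that excludes 1, for 6 of the 9 tested members. The ratio was 2.65 (2.32 to 3.02) for PMAIP1, 1.81 (1.55 to 2.12) for BCL2L11, 1.23 (1.15 to 1.31) for TNFRSF10B and 1.07 (1.02 to 1.12) for MCL1. It was 0.678 (0.629 to 0.732) for BCL2L1 and 0.739 (0.570 to 0.956) for BCL2. The interval included 1 for BAX, BAK1 and BBC3. The share of all tested genes with such an interval excluding 1 was not computed, so the count cannot be read as particular to the members. These intervals hold counting error only, and with 1 library per condition a difference between the lines and a difference between single cultures cannot be told apart.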

How the results depend on the processing

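Total counts, DESeq2 size factors, upper quartile scaling and both other filters kept the counts of members past the thresholds, at 0 in MDA-MB-231 cells and 3 in MDA-MB-435 cells. Without a minimum fold these became 7 and 5 of the 9 tested, beside 45.1% and 50.8% of all tested genes. With a fold over 1.5 they became 1 and 5. The share of all genes at that fold was not computed, so these counts cannot be read as particular to the members. When cultures were assumed to vary by a coefficient of 0.2 the count in MDA-MB-435 cells was 1, PMAIP1, and with 0.4 it was 0. Of the other apoptosis genes, 2 passed in each line. Without a minimum fold 23 of 37 and 22 of 33 tested did, beside the same 45.1% and 50.8% of all tested genes. With a fold over 1.5 it was 7 and 7, again without a share of all genes to set beside them. By fold alone it was 4 in MDA-MB-435 cells, all lower, where 9.75% of all tested genes were lower. With assumed coefficients of 0.1, 0.2 and 0.4 the count in MDA-MB-231 cells was 1, 0 and 0, and with 0.2 and 0.4 it was 0 and 0 in MDA-MB-435 cells. The common effect held for 5 members by edgeR and for 3 with DESeq2 (without BCL2L11 and PMAIP1). Over all genes 1215 passed by edgeR and 2131 with DESeq2, so DESeq2 was not the stricter test over all genes. Without the cell line block the common effect held for 0 members. There 0 members had an unadjusted p under 0.05 by edgeR and 0 of all genes passed. Of 54 log2 fold changes under other scalings 53 kept their sign and side of the threshold, and BCL2 in MDA-MB-435 cells turned from 0.12 to -0.034 with total counts. Total counts moved the median of all genes by -0.07 in MDA-MB-231 cells and -0.15 in MDA-MB-435 cells (log2), and 7 of 40 FPKM values moved beyond their counting interval. No library could be left out, since each condition has 1. The block on the line is what pairs each control with its treated library; the labels give no replicate numbers for any other pairing. Depth limits BBC3 and BCL2A1 most.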
